A study of Mus musculus with 17 samples.

Results

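Common Myeloid Progenitors (CMP) of mouse bone marrow were compared with the midpoint of Granulocyte-Monocyte Progenitors (GMP) and Megakaryocyte-Erythroid Progenitors (MEP), the populations to which they give rise. The midpoint is the average of the GMP mean and the MEP mean, and the comparison rests on 9 of the 17 mRNA arrays of the series, 3 for each of these populations. All 41174 non-control probes were tested, which stand for 28090 gene names. The question was which genes of CMP lie outside the range of both daughter populations, and so cannot come from a mixture of the 2 at any proportion, and which lie between them.

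All 3 populations were sorted from marrow of untreated female C57Bl/6 mice of 6 to 8 weeks, pooled over several animals for each sample, after depletion of cells carrying lineage antigens (B220, CD3, GR-1 and Ter119) and enrichment for c-kit. CMP were sorted as Lin-, c-kit+, Sca1-, CD34mid, FcRgmid, GMP were CD34+ and FcRg+ within the same Lin-, c-kit+, Sca1- cells, and MEP were CD34- and FcRg-. In each population 1 array carries the number 1, another the number 2, and 1 has no number. Arrays were scanned in runs. The numbered arrays of CMP, GMP and MEP were scanned together in 1 run and the unnumbered arrays in another, so the 3 populations were balanced over runs. The other 8 arrays hold long-term stem cells (LT-HSC), short-term stem cells (ST-HSC) and Multipotent Progenitors (MPP), and entered the fit to estimate the spread. No label ties a sample to a separate pool of animals beyond its own name, so p-values measure the spread between these samples.

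Blood formation is drawn as a tree in which multipotent cells give rise to CMP, and CMP to GMP, which make granulocytes and monocytes, and to MEP, which make red cells and platelets. A progenitor that expresses genes of several fates at low level before choosing one is said to be primed. In a bulk sample, a level between those of 2 daughters can come from cells that all express a gene at an intermediate level or from a mixture of cells that are already different, and fewer cells of a type cannot be told apart from less RNA per cell.

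Between 53.8% and 59.4% of spots were well above background on the CMP arrays, 50% to 57% on the GMP arrays and 48.2% to 50% on the MEP arrays. The transcripts of the sort antigens matched the gates in part. Kit, the stem cell factor receptor, had a normalized log2 intensity of 10.77 ± 0.07 (SD, n = 3) in CMP, 10.57 ± 0.19 in GMP and 11.00 ± 0.10 in MEP. Fcgr3, an Fc gamma receptor, stood at 9.78 ± 0.63 in CMP, below 13.61 ± 0.18 in GMP and near the widely spread 8.55 ± 1.78 of MEP. Cd34 was 15.25 ± 0.72 in CMP and 14.29 ± 0.23 in GMP, against 9.80 ± 1.10 in MEP, so its transcript was not intermediate. Ly6a, which encodes Sca-1, was 7.15 ± 0.71 in CMP, lower than the 9.71 ± 0.67 of GMP.

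The promoters of 4 genes are shown here because each belongs to a group of genes on which the results turn. Each run of bases starts 250 bases before the RefSeq start of the gene and ends 50 bases after it on the strand of the gene (GRCm38.p6), and a matched motif is in capitals. Pf4 (chr5:90772185-90772484, plus strand), a platelet chemokine, stands for the megakaryocytic genes that were higher in CMP than in both daughters, and holds a GATA motif (AGATAA or TGATAA on either strand). Btg2 (chr1:134079106-134079405, minus strand), an antiproliferative immediate early gene, stands for the stimulus-responsive genes above both, and holds a cyclic AMP response element (TGACGTCA). Epor (chr9:21963527-21963826, minus strand), the erythropoietin receptor, and Klf1 (chr8:84901732-84902031, plus strand), an erythroid zinc finger factor, stand for the erythroid genes that lay between the daughters, and each holds a GATA motif on the opposite strand.
Pf4 promoter: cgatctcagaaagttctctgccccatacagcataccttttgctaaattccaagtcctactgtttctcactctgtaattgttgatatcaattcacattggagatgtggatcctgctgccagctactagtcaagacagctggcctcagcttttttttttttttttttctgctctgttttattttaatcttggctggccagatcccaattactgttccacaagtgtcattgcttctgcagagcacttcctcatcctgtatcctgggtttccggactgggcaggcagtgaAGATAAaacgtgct
Btg2 promoter: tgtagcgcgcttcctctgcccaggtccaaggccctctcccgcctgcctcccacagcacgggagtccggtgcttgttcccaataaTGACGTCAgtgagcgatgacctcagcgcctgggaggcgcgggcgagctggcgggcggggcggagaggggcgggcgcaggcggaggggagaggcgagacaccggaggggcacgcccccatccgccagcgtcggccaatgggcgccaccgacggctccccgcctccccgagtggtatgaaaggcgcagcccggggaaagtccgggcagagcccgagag
Epor promoter: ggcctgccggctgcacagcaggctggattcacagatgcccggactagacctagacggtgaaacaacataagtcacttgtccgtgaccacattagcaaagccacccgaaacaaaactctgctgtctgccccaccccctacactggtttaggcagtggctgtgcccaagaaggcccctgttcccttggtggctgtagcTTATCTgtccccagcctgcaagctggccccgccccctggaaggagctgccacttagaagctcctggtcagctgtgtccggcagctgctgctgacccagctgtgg
Klf1 promoter: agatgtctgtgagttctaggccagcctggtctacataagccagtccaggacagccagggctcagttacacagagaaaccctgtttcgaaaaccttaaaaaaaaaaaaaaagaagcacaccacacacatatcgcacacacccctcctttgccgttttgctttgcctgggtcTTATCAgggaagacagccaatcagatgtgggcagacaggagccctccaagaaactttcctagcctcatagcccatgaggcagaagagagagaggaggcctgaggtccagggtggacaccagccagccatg
The motif lay 37 bases after the start in Pf4, and before it by 166 bases in Btg2, 54 in Epor and 80 in Klf1.

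CMP differed from the midpoint of their daughters on the log2 scale in 4402 gene names. CMP was above the midpoint in 2644 of them and below it in 1758 (limma, p-values adjusted over all probes by Benjamini-Hochberg, threshold 0.05), which is 9.41% and 6.26% of all gene names. By probe, 3449 were higher (8.38%) and 2495 lower (6.06%). On their means, 3503 of the 4402 lay outside both daughters, most of them without passing a test for it. Over all gene names 18027 of 28090 lay outside both on their means. A stricter test asked that CMP differ from GMP and from MEP in the same direction, using the larger of the 2 p-values. By this test 518 gene names were above both daughters (1.84%) and 85 were below both (0.303%), while 248 lay between them and differed from each (0.883%). A further 3760 gene names differed from the midpoint without passing into any of these classes, of which 3076 were nearer to GMP and 684 nearer to MEP, and 2900 of these lay outside both on their means. Nearer to a daughter does not mean that CMP sat at its level.

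The probes gave the same order, with 629 above both (1.53%), 102 below both (0.248%) and 306 between (0.743%). These counts were sensitive to single arrays. Without the unnumbered CMP array 31 probes were below both and 1054 lower than the midpoint, without CMP replicate 2 68 lay between, and without the unnumbered GMP array 332 were above both. Counting the midpoint on the linear scale, where it equals an even mixture of the 2 daughters, gave 2640 probes higher and 4032 lower. That fit used the differences within each set of arrays of the same number or none, so its model differed from the main fit as well as its scale. The share of higher calls was 58% in the main fit and 39.6% in the linear fit. On the log2 scale it was 48.4% in these 9 arrays alone with run as the block, so the excess of higher calls depended on the fit. With the replicate number as a block and these 9 arrays alone, 4181 probes were lower than the midpoint and 93 lay between, beside 4330 and 236 on the same arrays with run as the block. Wherever the replicate number is the block below, the fit used these 9 arrays alone, so it differs from the main fit in its arrays as well as its block.

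**Figure D1:**
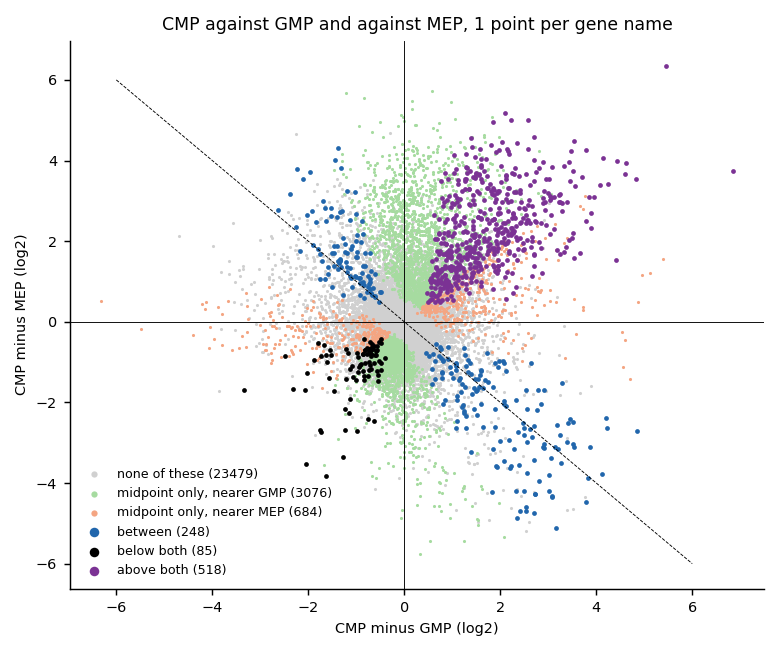
Each point is 1 gene name, with the difference of CMP from GMP on the x axis and from MEP on the y axis, both in log2 units, and the dashed line marks genes at the midpoint. The 518 gene names above both fill the upper right corner, the 85 below both the lower left, and the 248 between lie along the dashed line.

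All 3 CMP arrays lay above all 6 GMP and MEP arrays in 501 of the 518 gene names, a pattern that 5.12% of all gene names and 4.59% of probes showed. These arrays also made the call, so the count describes the class and does not test it. The gap to the nearer daughter, taken on measured values whether or not they were above background, had a median of 1.45 on the log2 scale. In 347 of them every array of the 3 populations was well above background, and in 66 both daughters were below background on all arrays, so that only a bound on the difference was measured.

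The 12 genes with the largest gap to the nearer daughter, among those whose arrays did not overlap, were ordered on measured values. In Hoxa10, Rtn4rl1, Upk1b and Rasal1 both daughters were below background, so their place among the 12 is not measured, and Epha2 was above background on 1 array of each daughter. Hoxa10, a homeobox factor of immature blood cells (probe at chr6:52181656-52181715, mm9), had log2 intensities of 5.86, 5.79 and 5.55 in CMP, 2.16, 2.20 and 2.17 in GMP, and 2.40, 2.35 and 2.38 in MEP. No array of either daughter detected it above background, and CMP was at least 2.81-fold higher than GMP and at least 2.02-fold higher than MEP (adjusted p = 2.78e-06). Here and below, such a bound sets the mean of the brighter group against the lowest signal that counted as above background on the arrays of the dimmer group. Ctla2a, which encodes a cysteine protease inhibitor, was 13.56, 13.29 and 13.54 in CMP against 9.75 to 10.05 in GMP and 8.66 to 9.32 in MEP (adjusted p = 5.15e-05). Epb4.1l4b, a gene of the band 4.1 family of membrane-linked proteins, was 12.47 ± 0.18 in CMP, 8.69 ± 0.34 in GMP and 8.21 ± 0.77 in MEP (adjusted p = 0.000165).

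Dntt, the terminal transferase that adds bases to rearranging antigen receptor genes (chr19:41133936-41133995, mm9), was 15.70, 14.88 and 15.02 in CMP, 8.88, 7.69 and 8.49 in GMP, and 10.64, 10.82 and 12.91 in MEP (adjusted p = 0.00356), with the unnumbered MEP array standing above the other MEP arrays. That array was on another slide than the unnumbered CMP and GMP arrays and was scanned on another day. The same MEP array stood apart in Epha2, an ephrin receptor, in which MEP was 1.93, 1.91 and 4.89 against 9.66, 9.20 and 8.93 in CMP and 3.25, 3.93 and 4.26 in GMP. It did so also in Cox6a2, a subunit of cytochrome c oxidase (5.45, 5.43 and 8.25 in MEP), and in Emp1, an epithelial membrane protein (2.54, 2.44 and 5.02). In each of these genes the CMP arrays were above that array as well. Without that MEP array all 4 stayed above both, whereas Emp1 lost its call without either numbered MEP or CMP array or the unnumbered GMP array, and Epha2 without either numbered CMP array, GMP replicate 1 or the unnumbered GMP array. With the replicate number as a block, Dntt and Cox6a2 had an adjusted p of 0.0646 and Emp1 of 0.095, and the other 9 of the 12 kept their call.

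Rtn4rl1, Upk1b and Id3 had their highest mean of the 6 populations in CMP. Rtn4rl1, a relative of the Nogo receptor, was 7.29, 7.32 and 7.08 in CMP, and below background on all arrays of GMP and MEP, so that CMP was at least 7.92-fold above GMP and at least 5.69-fold above MEP (adjusted p = 0.00104). MPP minus CMP was -2.49 in the fit with run as a block (adjusted p = 0.0265). Upk1b, a tetraspanin known from bladder epithelium, was 4.71, 5.35 and 5.59 in CMP and between 1.64 and 1.81 on the 6 arrays of its daughters, all below background (at least 1.96-fold above GMP and 1.41-fold above MEP). MPP was 2.43 ± 0.28, lower than CMP (adjusted p = 0.000595). Rasal1, a negative regulator of Ras and highest in MPP, was at least 8.15-fold above GMP and 5.85-fold above MEP. Id3, an inhibitor of E protein transcription factors, was 9.71 ± 1.13 in CMP, 5.63 ± 0.91 in GMP and 6.31 ± 0.42 in MEP, and the unnumbered CMP array, at 8.41, was the lowest of its group.

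**Figure D2:**
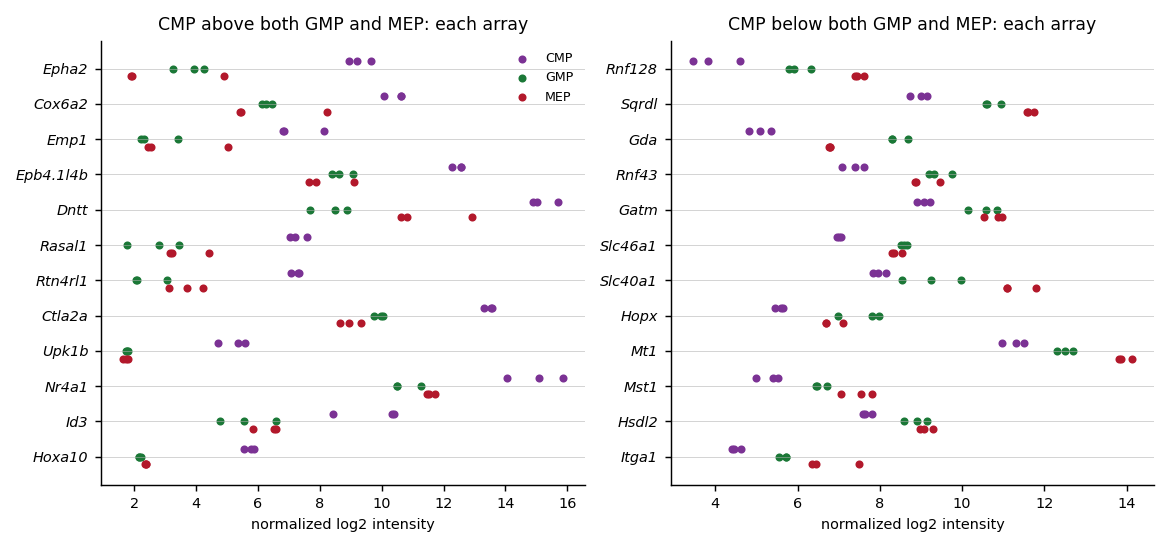
Normalized log2 intensity (x axis) on each of the 9 arrays for the 12 genes with the largest gap above both daughters (left) and below both (right), with 1 point per array. In every gene shown the 3 CMP points lie on 1 side of all GMP and MEP points, and the unnumbered MEP array is separate from the other MEP arrays in Epha2, Cox6a2, Emp1 and Dntt.

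Genes of stem cells and multipotent progenitors had the largest share above both daughters of the lists counted. Of 29 measured, 25 were higher than the midpoint and none was lower, 16 were above both, and the median difference from the midpoint was 2.07 on the log2 scale, beside -0.08 over all gene names. Beside Hoxa10, the 16 held Hoxa7, Hoxa9 and Meis1, which are homeobox factors of the stem cell program, Mycn, Hlf, Erg, Satb1 and Sox4, which are transcription factors, and receptors and surface proteins of stem cells such as Robo4, Slamf1, Cd27 and Gpr56. Robo4, a roundabout receptor of stem and endothelial cells, was 9.08, 8.67 and 9.01 in CMP, 6.17, 5.95 and 4.93 in GMP, and 5.65, 6.06 and 6.12 in MEP (adjusted p = 0.00069). It was higher still in MPP, at 12.34 ± 0.04, which exceeded CMP by 3.64 (adjusted p = 0.00102). Slamf1, the CD150 antigen, differed from Robo4 in that MPP was low (1.97 ± 0.31) while CMP was 5.72 ± 0.45, at least 2.78-fold above GMP. The exception was Ptpn13, a tyrosine phosphatase, which lay between its daughters at 5.78 ± 0.50 in CMP, below background in GMP and 10.12 ± 0.53 in MEP. It lost this call on the 9 arrays alone, with run as the block (adjusted p = 0.0546) and with the replicate number as a block (0.0912). It also lost it with normexp background correction (0.203) and with the mean of all its probes (0.387). Prdm16, Hoxb4 and Mllt3 passed in no class. Of the 16 above both, 10 to 16 kept that call when 1 array was left out, fewest without the unnumbered CMP array or the unnumbered GMP array. With the replicate number as a block on these 9 arrays 8 kept it, and Cd27, Egfl7, Hlf, Hoxa7, Hoxa9, Mycn and Satb1 were among those that lost it (adjusted p from 0.0511 to 0.17). On the same arrays with run as the block 13 kept it, all but Cd27, Hlf and Mycn.

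Flt3, the receptor that marks lymphoid-primed progenitors, was above both daughters, at 10.26, 9.71 and 8.16 in CMP, 6.03, 6.45 and 5.66 in GMP, and 5.23, 5.80 and 5.49 in MEP (adjusted p = 0.00185). All 3 CMP arrays were above all 6 daughter arrays, and the unnumbered CMP array was the lowest of its group. Among 34 cytokine receptors, 18 were higher than the midpoint, 2 lower and 5 above both, among them Flt3, Il4ra, Il1r1 and Tgfbr2. The myeloid growth factor receptors were elsewhere. Csf1r and Il6ra were higher than the midpoint and nearer to GMP, Csf2ra and Epor lay between, and Kit did not pass. Of the 5 above both, 3 kept their call with the replicate number as a block, which Il1r1 did not pass (adjusted p = 0.119), and 2 kept it without CMP replicate 1 or without the unnumbered CMP array. On the same 9 arrays with run as the block 4 kept it, all but Il1r1.

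**Figure D3:**
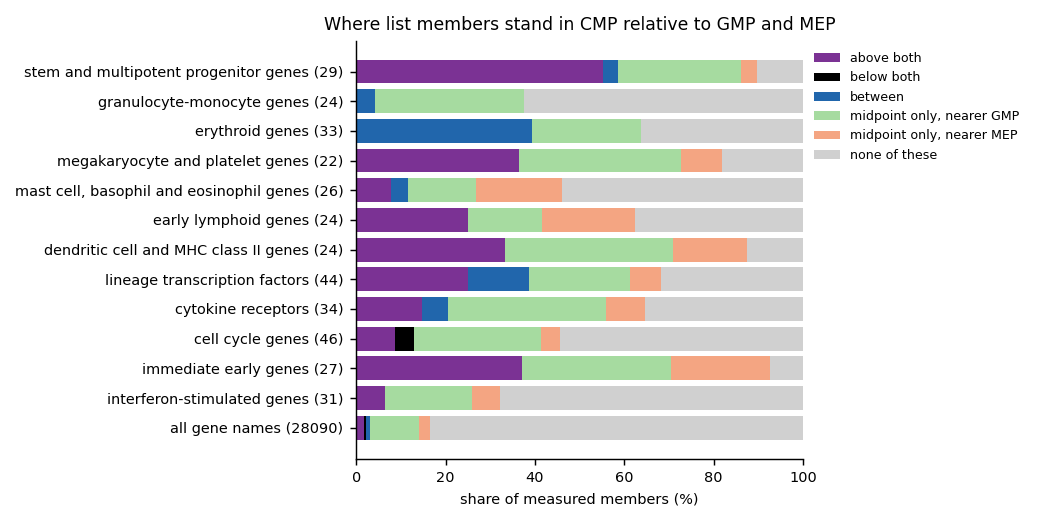
Share of the measured members of each gene list (x axis, percent, with the number measured in brackets) that were above both daughters, below both, between them, or different from the midpoint only and nearer to GMP or to MEP. The purple share, above both, is widest for stem and multipotent genes at 55.2%, against 1.84% over all gene names in the lowest bar, and the blue share, between, is widest for erythroid genes at 39.4%.

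Most megakaryocyte and platelet genes were higher in CMP than the midpoint, although MEP is the population named for that fate. Of 22 measured, 18 were higher than the midpoint and none lower, 8 were above both, none lay between, and the median difference was 2.21. Pf4, whose promoter is given above, was 14.32, 13.99 and 15.54 in CMP, 12.51 ± 0.71 in GMP, and 8.92, 9.69 and 9.72 in MEP (adjusted p = 0.0104). MEP was thus the lowest of the 3, and CMP minus MEP was 5.17. Vwf, which encodes von Willebrand factor, was 12.10 ± 0.34 in CMP, 9.99 ± 0.68 in GMP and 9.66 ± 0.06 in MEP. Treml1, a receptor of platelet granules, was 11.65 ± 0.61, 9.30 ± 0.58 and 7.21 ± 0.55 in the same order. Plek (pleckstrin), Gp1bb and Gp9 (subunits of the platelet receptor for von Willebrand factor) and Mmrn1 (multimerin) were also among the 8. Mmrn1 had an adjusted p of 0.0497 and lost its call when any 1 of 8 arrays was left out, all but the unnumbered MEP array. Pf4 lost its call without the unnumbered GMP array, the unnumbered CMP array or CMP replicate 1. With the replicate number as a block 4 of the 8 kept their calls, and Pf4 (adjusted p = 0.0954), Treml1 (0.0759) and Mmrn1 (0.204) were among those that did not. On the same 9 arrays with run as the block 6 kept theirs, all but Pf4 and Mmrn1.

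A further 8 megakaryocyte genes were higher than the midpoint and nearer to GMP without passing against both daughters. Itga2b, the CD41 integrin subunit, was 11.72 ± 0.47 in CMP, 10.45 ± 0.29 in GMP and 7.42 ± 0.61 in MEP, and its difference from the midpoint was 2.79 (adjusted p = 0.000217). Gp5, a platelet glycoprotein, passed in no class, and its CMP minus MEP was -0.04. Gp1ba was nearer to MEP, and did not pass with the replicate number as a block (adjusted p = 0.0541). Of the 6 promoters matched among the 8 genes above both, those of Pf4 and Mmrn1 held the GATA motif, as did 7 of 15 over all megakaryocyte genes and 14.3% of 15342 matched promoters.

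The early lymphoid genes called in a class were all above both daughters. Of 24 measured, 14 were higher than the midpoint and 1 lower, and 6 were above both. Beside Dntt these were Blnk, a B cell adaptor, Igh-6, the immunoglobulin mu chain, Ly6d, Il12a and Lck. Blnk was 11.45 ± 0.32 in CMP, 7.03 ± 0.56 in GMP and 9.93 ± 0.99 in MEP, and lost its call without any of 5 single arrays, which were both numbered CMP arrays, both numbered MEP arrays and the unnumbered GMP array. Il7r, the interleukin 7 receptor, was 7.94, 7.25 and 8.47 in CMP, below background in GMP and 6.05, 6.03 and 7.93 in MEP. CMP was at least 12.5-fold above GMP, but the difference from MEP, 1.21, did not carry it past the test for both (adjusted p = 0.0949). Igll1, a surrogate light chain, was the lower one, with CMP below background on all arrays and MEP at least 5.17-fold above it. Rag1, Rag2 and Ebf1, which define later lymphoid stages, were below background on at least 2 of 3 arrays in each population. With the replicate number as a block and these 9 arrays alone, none of the 6 kept its call (adjusted p from 0.0646 for Dntt to 0.18 for Lck), and without the unnumbered GMP array 1 did. On the same 9 arrays with run as the block 3 kept it, all but Blnk, Igh-6 and Lck.

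Genes of antigen presentation and dendritic cells were nearly all higher in CMP than the midpoint, 21 of 24, with none lower, and 8 were above both. Batf3, a factor of conventional dendritic cells, was 9.95, 10.26 and 10.14 in CMP, 7.23, 6.95 and 7.04 in GMP, and 6.91, 7.02 and 7.32 in MEP (adjusted p = 0.00458), so that the arrays of the daughters overlapped. Cd74, the invariant chain of MHC class II, was 12.34 ± 0.15, 10.01 ± 0.39 and 9.95 ± 0.51. The other 6 were Runx2, Ccr7, Itgax, H2-DMa, Id2 and Tcf4. The class II genes H2-Aa, H2-Ab1 and H2-Eb1, with their activator Ciita, were all higher than the midpoint, by 1.89 to 2.56, and each was higher in CMP than in both daughters on its mean without passing the test for both. For 17 of the 24 the highest of the 6 population means was that of MPP. Without CMP replicate 1, 4 of the 8 kept their call, and with the replicate number as a block 6 did, all but Runx2 and Tcf4. On the same 9 arrays with run as the block 7 did, all but Runx2.

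Immediate early genes, which respond quickly to stimuli, showed the highest share of members above the midpoint, 25 of 27 (92.6%, against 9.41% of all gene names), with none lower. For 20 of the 27 the highest of the 6 population means was that of MPP, and for 1 that of CMP. The share above both was 37%, against 1.84% of all gene names. Above both were 10, led by Nr4a1, an orphan nuclear receptor, at 15.85, 15.09 and 14.05 in CMP, 11.28, 10.51 and 10.51 in GMP, and 11.54, 11.72 and 11.47 in MEP (adjusted p = 0.00107). Socs3, a feedback inhibitor of cytokine signalling, was 11.22, 11.14 and 10.05 in CMP and between 7.35 and 8.04 on the 6 arrays of its daughters (adjusted p = 7.27e-05). Btg2, shown above, was 11.83 ± 0.47, 10.36 ± 0.21 and 9.66 ± 0.10 in CMP, GMP and MEP. Dusp2, Zfp36, Egr1, Ier5, Dusp6, Junb and Ier2 made up the rest. In Nr4a1, Socs3 and Btg2 the unnumbered CMP array, scanned in another run, was the lowest CMP array. Fos, Fosb, Jun, Klf4 and Klf6 were higher than the midpoint and nearer to GMP. Of 8 promoters matched among the 10, that of Btg2 alone held the cyclic AMP response element, as did 3 of 24 over the whole list and 2.57% of matched promoters. Of the 10, 6 kept their call without CMP replicate 1 and also 6 with the replicate number as a block, which Dusp2, Dusp6, Ier2 and Junb did not pass. On the same 9 arrays with run as the block 9 of the genes kept it, all but Dusp6. The part of the scanner run in these levels was not tested.

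Among 44 lineage transcription factors, 24 were higher than the midpoint, 1 lower, 11 above both and 6 between. Gata2, a factor of stem cells and mast cells, was above both, at 12.04, 12.33 and 12.25 in CMP, 11.52, 11.48 and 11.48 in GMP, and 10.41, 10.64 and 10.56 in MEP (adjusted p = 0.00711). Gata1, which follows it in red cell formation, lay between, at 10.13 ± 0.60 in CMP, 8.05 ± 0.07 in GMP and 12.08 ± 0.31 in MEP (adjusted p = 0.0314). Irf8, a factor of monocytes and dendritic cells, was higher than the midpoint and nearer to GMP, at 14.95 ± 0.09 in CMP, 14.37 ± 0.27 in GMP and 9.22 ± 0.67 in MEP. Cebpa, the granulocyte factor, was 10.22 ± 0.42 in CMP, 11.59 ± 0.34 in GMP and 6.83 ± 1.02 in MEP and passed in no class. Of the 11 above both, 7 kept their call without CMP replicate 1 and also 7 with the replicate number as a block, which Mycn, Runx2, Satb1 and Tcf4 did not pass. On the same 9 arrays with run as the block 9 of the genes kept it, all but Mycn and Runx2. Gata2 lost its call without the unnumbered GMP array and with 75th percentile scaling. Of the 6 between, 2 kept their call without CMP replicate 2 and 2, Gfi1b and Tal1, with the replicate number as a block, where Gata1 had an adjusted p of 0.0649. On the same 9 arrays with run as the block 5 of the 6 kept it, Gata1 among them. Gata1 also lost its call without a block for run (adjusted p = 0.071) and without any single array other than the unnumbered GMP array (0.0847 to 0.17).

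The 85 gene names below both daughters were fewer and their gaps smaller. The gap to the nearer daughter had a median of -0.76. All 3 CMP arrays were below all 6 daughter arrays in 73 of the 85 (3.69% of all gene names, 3.72% of probes), and in 81 every array was well above background. The 12 with the largest gaps follow. Sqrdl, a mitochondrial enzyme that oxidises sulfide, was 9.16, 8.99 and 8.73 in CMP, 10.58, 10.61 and 10.94 in GMP, and 11.75, 11.56 and 11.60 in MEP (adjusted p = 0.000367). Slc46a1, a transporter of folate and heme (chr11:78285032-78285091, mm9), was 7.05, 6.96 and 6.99 in CMP, 8.65, 8.57 and 8.51 in GMP, and 8.28, 8.35 and 8.54 in MEP (adjusted p = 0.000582). Both genes stayed below both daughters when any 1 array was left out.

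Slc40a1, which encodes ferroportin, the iron exporter, was 8.16, 7.84 and 7.94 in CMP, 9.24, 8.54 and 9.97 in GMP, and 11.09, 11.08 and 11.79 in MEP. Its adjusted p was 0.0417, and it lost its call when any single array other than GMP replicate 2 was left out. Mt1, a metallothionein that binds zinc and copper, was 11.26 ± 0.27 in CMP, 12.50 ± 0.20 in GMP and 13.94 ± 0.18 in MEP (adjusted p = 0.00765), and lost its call without the unnumbered GMP array. Gatm, which makes the precursor of creatine, was 9.06 ± 0.16, 10.52 ± 0.36 and 10.79 ± 0.24. Gda, guanine deaminase, was 5.09 ± 0.26, 8.42 ± 0.23 and 6.79 ± 0.01. Hsdl2, a peroxisomal dehydrogenase-like protein, was 7.68 ± 0.11, 8.88 ± 0.28 and 9.11 ± 0.16, and none of Gatm, Gda and Hsdl2 lost its call without a single array. Gda lost it with 75th percentile scaling, with the mean of all its probes and without a block for run (adjusted p = 0.598 in the last). With the replicate number as a block, Gatm (adjusted p = 0.0516), Mt1 (0.0598) and Slc40a1 (0.121) did not pass, nor did Hopx (0.062), Mst1 (0.0777) and Itga1 (0.159), whose levels follow.

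The remaining 5 of the 12 were ubiquitin ligases, a homeodomain protein, a growth factor and an integrin. Rnf128, a ubiquitin ligase known from T cell anergy, was 4.61, 3.83 and 3.45 in CMP, of which 1 array detected it so that its gap and rank are not measured, 6.01 ± 0.28 in GMP and 7.49 ± 0.11 in MEP. It lost its call without the unnumbered GMP array, the unnumbered CMP array or CMP replicate 2. Rnf43, a ubiquitin ligase of Wnt receptors, was 7.37 ± 0.27, 9.42 ± 0.29 and 9.06 ± 0.34. Hopx, a homeodomain protein that does not bind DNA, was 5.56 ± 0.09, 7.59 ± 0.53 and 6.83 ± 0.24, Mst1, a gene for macrophage-stimulating protein, 5.30 ± 0.29, 6.54 ± 0.14 and 7.46 ± 0.39, and Itga1, an integrin subunit, 4.50 ± 0.11, 5.65 ± 0.10 and 6.77 ± 0.63. Each of these 4 lost its call without any 1 of at least 6 of the 9 arrays, CMP replicates 1 and 2 and the unnumbered CMP array among them.

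Cell cycle genes were the list with most members lower than the midpoint, 14 of 46 with 7 higher (30.4% and 15.2%, against 6.26% and 9.41% of all gene names). The median difference was -0.17. For 24 of the 46 the highest of the 6 population means was that of MEP, and 13 differed from the midpoint only and were nearer to GMP. Plk1 and Ccnb1, which drive entry into mitosis, were below both. Ccnb1 was 9.99, 9.94 and 10.38 in CMP, 10.52, 10.62 and 10.88 in GMP, and 11.30, 11.20 and 11.45 in MEP (adjusted p = 0.0203), and CMP minus GMP was -0.57. Ccnb1 lost its call without any single array of CMP or GMP, and Plk1 (adjusted p = 0.0494) without any single array and with the replicate number as a block (adjusted p = 0.0667). Above both were Ccnd1 and Ccnd2, the D cyclins of the G1 phase, and the inhibitors Cdkn1b and Cdkn2d. Ccnd1 alone kept its call when any 1 CMP array was left out, and Ccnd2 did not pass with the replicate number as a block (adjusted p = 0.103). Ccnd1 was 9.41 to 9.59 in CMP, 7.98, 8.01 and 7.25 in GMP, and 7.77, 7.66 and 7.45 in MEP (adjusted p = 0.000579). Ccne1, a cyclin of the G1 to S transition, was lower than the midpoint and nearer to GMP, at 11.72 ± 0.42 in CMP and 11.54 ± 0.26 in GMP against 14.42 ± 0.09 in MEP. The replication licensing genes Mcm2 to Mcm7 differed from the midpoint by -0.39 to 0.18 and none passed.

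In 248 gene names CMP lay between its daughters and differed from each. A further 860 that differed from the midpoint lay between on their means without passing that test. In the 248, MEP was the higher daughter in 148 and GMP in 100, and on the log2 scale CMP was nearer to GMP in 175 and nearer to MEP in 73. Only 39 of the 248 also differed from the midpoint. Erythroid genes were the list with the largest share here, 13 of 33, while 8 more were lower than the midpoint and nearer to GMP, and none was above or below both. Epor was 11.56, 11.08 and 10.49 in CMP, 7.73, 7.46 and 7.75 in GMP, and 14.10, 13.91 and 14.07 in MEP (adjusted p = 0.00237), and stood 0.20 from the midpoint with a standard error of 0.27. Klf1 was 10.14, 9.80 and 9.46 in CMP, 6.26, 6.55 and 7.17 in GMP, and 12.86, 12.83 and 13.04 in MEP, at 0.01 from the midpoint. In both genes the CMP arrays overlapped with neither daughter and were more spread than those of MEP. Of the 13, 4 to 10 kept their call when 1 array was left out, fewest without CMP replicate 1 or CMP replicate 2. With the replicate number as a block Epor and Gfi1b alone kept it (adjusted p = 0.0462 for each), and Klf1 had an adjusted p of 0.0502. On the same 9 arrays with run as the block 6 of the 13 kept it, Klf1 among them. In all, 50 of the 248 kept their call with the replicate block, against 125 on the same arrays with run as the block. Without CMP replicate 2 56 kept it, and 0 in the numbered arrays alone, where the limma adjusted p of Epor was 0.12.

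Gfi1b, a transcriptional repressor needed for red cells and platelets, was 12.17 ± 0.11 in CMP, 9.31 ± 0.31 in GMP and 14.19 ± 0.30 in MEP. Other erythroid genes between were Car1 and Car2 (carbonic anhydrases), Aqp1 (aquaporin), Zfpm1 (the GATA1 partner FOG1, the only erythroid gene higher than the midpoint), Ermap, Ank1, Rhag, Mt2 and Bzrpl1. Car1 was 12.99, 12.59 and 10.69 in CMP, the unnumbered array being the lowest. The erythroid genes nearer to GMP were mostly enzymes of heme synthesis, among them Fech, Cpox, Ppox and Urod, together with Tfrc, Slc4a1 and Epb4.2. Epb4.2, a red cell membrane protein, was below background on all CMP and GMP arrays and at least 8.4-fold higher in MEP than in CMP. The GATA motif was present in 5 of 10 matched promoters of the erythroid genes between (Epor, Klf1, Ermap, Gfi1b and Rhag), in 11 of 23 over the whole erythroid list, in 17.1% of 105 promoters of all genes between with MEP higher, and in 10.1% of 79 with GMP higher.

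Granulocyte and monocyte genes gave a different division. Of 24 measured, 8 were higher than the midpoint, all nearer to GMP, and only Csf2ra, a subunit of the GM-CSF receptor, lay between, at 12.70 ± 0.34 in CMP, 13.91 ± 0.23 in GMP and 11.22 ± 0.64 in MEP, a call lost with the replicate number as a block (adjusted p = 0.0833), without a block for run (0.215) and without any single array other than MEP replicate 2 or the unnumbered MEP array. Those 8 were Irf8, Ly86, Csf1r, Emb, F13a1, Ccr2, Klf4 and Cd33, several of which are known from monocytes. Csf1r, the M-CSF receptor, was 11.62 ± 0.61 in CMP and 11.70 ± 0.72 in GMP against 6.49 ± 0.48 in MEP. Genes of neutrophil granules, Mpo, Ctsg, Prtn3 and Ela2, passed in no class and had means below GMP and above MEP. For Ela2, neutrophil elastase, GMP was 14.50 ± 0.53, against 11.08 ± 0.86 for CMP and 9.95 ± 1.40 for MEP.

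The mast cell, basophil and eosinophil list was the one with the lowest median difference, -0.83, with 6 of 26 lower than the midpoint and 5 higher. Ltc4s, which makes leukotriene C4, and Gata2 were above both, with gaps of 1.26 and 0.72 (2 of 26, 7.69%, against 1.84% of all gene names). The chemokine Ccl3 and the cytokine receptor chains Csf2rb2 and Csf2rb were higher than the midpoint by 3.04, 1.12 and 0.95. Ccl3 kept its call under each of 20 alternatives, whereas Csf2rb2 lost it without any single array other than the unnumbered GMP array or MEP replicate 2. Csf2rb lost its call under 12 of the 20, among them the replicate block (adjusted p = 0.0923) and leaving out any single CMP array, GMP replicate 1 or 2, or MEP replicate 1. Prss34, a basophil protease, was 7.95, 9.52 and 7.91 in CMP, 14.37, 14.96 and 14.98 in GMP, and 8.80, 8.93 and 6.11 in MEP, so that the CMP and MEP arrays overlapped (difference from the midpoint -2.90, adjusted p = 0.0102, and not past the threshold without CMP replicate 1). Cd200r3, a receptor of basophils and mast cells, was below background in CMP and MEP and at least 9.19-fold higher in GMP than in CMP. Cpa3, the mast cell carboxypeptidase, lay between, at 10.09 ± 0.43 in CMP, 12.48 ± 0.19 in GMP and 6.91 ± 0.26 in MEP (adjusted p = 0.0134), a call lost without GMP replicate 2, the unnumbered GMP array, CMP replicate 1 or CMP replicate 2. Interferon-stimulated genes were closer to the midpoint, with 8 of 31 higher, 2 lower, and Mx2 and Oasl2 above both. Oasl2 lost its call without any 1 of 7 arrays, all but GMP replicate 2 and MEP replicate 2.

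Among the genes between that lay farthest above the midpoint were Spsb4, a SOCS box adaptor, Stxbp6, a syntaxin-binding protein, and Rtn4r, the Nogo receptor. All 3 were below background on every MEP array and highest in GMP, so that their distance from the midpoint rests on values not detected in MEP. With normexp background correction it was not past the threshold in any of the 3. Stxbp6 was 5.45, 6.22 and 6.26 in CMP and 7.26, 7.71 and 7.31 in GMP, and at least 2.38-fold higher in CMP than in MEP. Gpr65, a proton-sensing receptor, was 9.73 ± 0.61, 10.76 ± 0.22 and 6.52 ± 0.38. Farthest below it were Spon2, Slc26a1, Nags, Ctse and Abcg4, all highest in MEP. None of these 10 genes (the 8 named here with Gpr65 and Car1) kept its between call with the replicate number as a block, with adjusted p from 0.0865 for Stxbp6 to 0.261 for Rtn4r. None kept it on the same 9 arrays with run as the block either (0.071 for Spsb4 to 0.162 for Gpr65). Abcg4, a sterol transporter, was 7.39, 6.24 and 5.96 in CMP, 4.19 ± 0.70 in GMP, and 11.47, 11.17 and 11.53 in MEP (adjusted p = 0.041). In Spon2, Slc26a1, Nags and Abcg4 the difference from the midpoint differed between array sets in the same way, from 0.02 to -0.21 in the arrays numbered 1 to between -2.02 and -2.30 in the unnumbered arrays, which were scanned in another run.

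Of the genes that differed from the midpoint alone, 1712 were higher and 1364 lower while nearer to GMP. Among the higher ones, beside Cd34 and Irf8, were Trpc6, a calcium channel, Apcdd1, an inhibitor of Wnt signalling, and Rnd3, a small GTP-binding protein. Apcdd1 was 8.92 ± 0.48 in CMP, 7.09 ± 0.12 in GMP, and 1.78, 3.93 and 5.83 in MEP, the MEP arrays being far apart, and CMP minus GMP was 1.83. Lower and nearer to GMP were Fgd6, Cyp1a1, Epb4.2, Igll1 and Agtr1a. Agtr1a, an angiotensin receptor, was below background in CMP and GMP and at least 25.3-fold higher in MEP than in CMP. Nearer to MEP were 390 higher and 294 lower. The named higher ones were Arpp21, Egr3, Camk2n1, Kal1 and Il7r, all of which lay above both daughters on their means without passing the test for both. Arpp21, a cyclic AMP-regulated phosphoprotein, was 7.45, 6.76 and 7.41 in CMP, below background in GMP, and 5.21, 5.12 and 6.61 in MEP. Lower and nearer to MEP were Alox12e, Olr1, Sncaip, Cd200r3 and Prss34, all highest in GMP, of which Sncaip did not pass with the replicate number as a block (adjusted p = 0.0796).

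The position of CMP between its daughters was also taken on the linear scale. On linear intensities, with 0% at MEP and 100% at GMP, genes at least 4-fold higher in GMP put CMP at a median of 58.4% in the arrays numbered 1, 61.5% in those numbered 2 and 69.2% in the unnumbered arrays (1305 to 1306 gene names). Genes at least 4-fold higher in MEP put CMP nearer to GMP, at 85.4%, 88.2% and 94.2% (656 gene names). A gene at the log2 midpoint lies nearer to its lower daughter on the linear scale. The 2 groups of genes would therefore differ here even with CMP at the log2 midpoint. The quartile ranges of the 2 groups of genes overlapped, from 23.4% to 107% and from 66% to 93.3% in the arrays numbered 1. Of the genes higher in GMP, 28.2%, 26% and 32.8% had CMP above GMP in the 3 array sets. These are medians over genes within an array set, with no test.

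**Figure D4:**
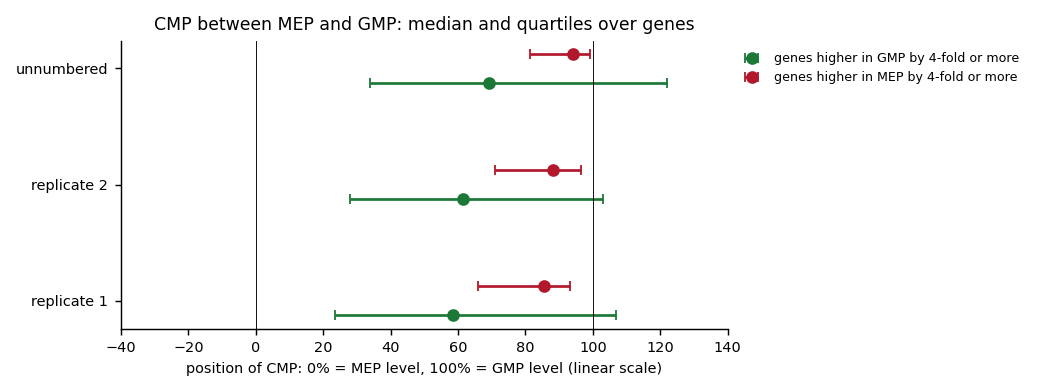
Position of CMP on the line from MEP (0%) to GMP (100%) on linear intensities (x axis), for the arrays numbered 1, numbered 2 and unnumbered (y axis). Points are medians and bars quartiles over genes at least 4-fold higher in GMP (green, medians 58.4% to 69.2%) or in MEP (red, 85.4% to 94.2%).

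The stem and multipotent populations of the series showed where the genes outside both daughters stood elsewhere. Of the 518 gene names above both, the highest of the 6 population means was that of MPP in 314, CMP in 82, LT-HSC in 63 and ST-HSC in 59. Over all gene names CMP was the highest in 7.14% (8.14% of probes) and MPP in 18.8%. In the fit MPP was higher than CMP in 160 of the 518 (30.9%, against 2.59% of all gene names) and lower in 39 (7.53%, against 1.68%), and in 319 the difference did not pass. This contrast and those with GMP and MEP use the same CMP arrays. Of the 3 MPP arrays, 2 were scanned in a run that holds no CMP, GMP or MEP array, and MPP came from a separate sort, so population, sort and run cannot be fully told apart. On the 1 slide that holds both an MPP and a CMP array, MPP was above CMP in 404 of the 518 (78%, against 54.1% of all gene names). Dntt, Nr4a1, Robo4 and Hoxa10 were higher in MPP than in CMP on their means, and Hoxa10 by 2.22 (adjusted p = 0.000252).

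Of the 22 megakaryocyte genes MPP was lower than CMP in 12 by the same fit, and MPP had the highest mean in 3. MPP minus CMP was -5.13 for Pf4 (adjusted p = 0.000381), -5.40 for Treml1 (adjusted p = 0.000232) and -3.98 for Vwf (adjusted p = 0.000476). Pf4 was 9.84 ± 0.53 in MPP, near the MEP level, and highest in ST-HSC. Of the 85 gene names below both, the lowest mean was that of MPP in 50, CMP in 30, ST-HSC in 3 and LT-HSC in 2. Of these 85, MPP was lower than CMP in 16 (18.8%, against 1.68% of all gene names) and higher in 3 (3.53%, against 2.59%), and in 66 the difference did not pass. Mt1 and Rnf43 were lower in MPP than in CMP, whereas Sqrdl was higher in MPP by 1.17 (adjusted p = 0.013).

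**Figure D5:**
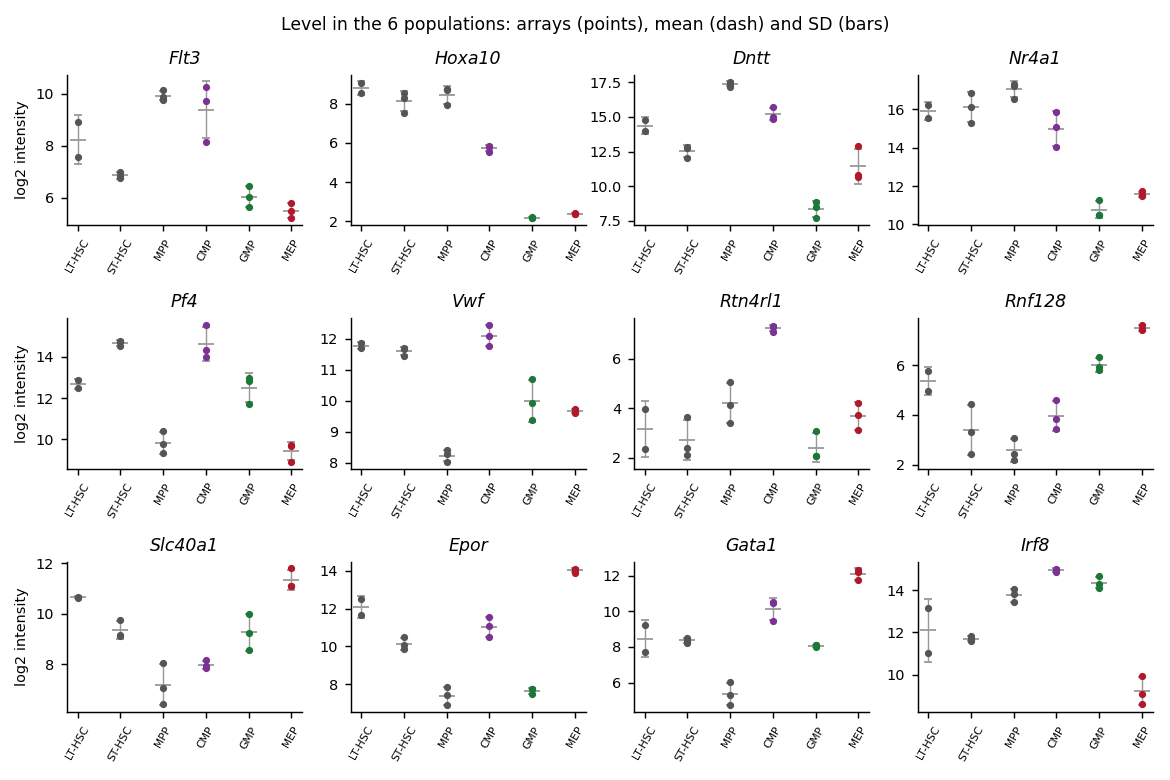
Normalized log2 intensity (y axis) of 12 genes in the 6 populations (x axis), with 1 point per array, the mean as a dash and the SD as bars. Hoxa10, Dntt and Nr4a1 are lower in CMP than in MPP and lower still in GMP and MEP, Pf4 and Vwf are high in ST-HSC and CMP and low in MPP, Rtn4rl1 is highest in CMP, and Epor and Gata1 lie between GMP and MEP in CMP.

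Markers of mature cells that the gates could have let through were examined in the same way. Among 8 B cell markers, Cd22 alone was above both, at 7.59, 7.80 and 7.51 in CMP and 4.28 to 4.80 on the 6 daughter arrays (adjusted p = 3.48e-05), while Cd79b, a chain of the B cell receptor, was higher than the midpoint by 1.41 and nearer to GMP, Cd79a was above background on 1 of the 9 arrays, and Ms4a1 and Pax5 on none. The summed B cell marker intensity was 2820 to 4120 in CMP, 3490 to 4010 in GMP and 441 to 635 in MEP. Among 10 T and NK cell markers Klrd1 and Cd5 were above both, though not with the replicate number as a block (adjusted p of 0.0714 and 0.0778), Cd3e did not pass, and the summed intensity was 522 to 696 in CMP, 190 to 234 in GMP and 247 to 474 in MEP. Of 12 neutrophil and 10 macrophage markers none was above both. The summed neutrophil intensity was the largest of these marker lists, at 41300 to 117000 in CMP, 57500 to 250000 in GMP and 94600 to 197000 in MEP. The unnumbered array was the lowest in CMP and the highest in GMP. Of the 12 neutrophil markers, 11 to 12 were above background on the CMP arrays, and their median difference from the midpoint was -0.74. The summed macrophage intensity was 1270 to 1720 in CMP, 2780 to 4060 in GMP and 687 to 1290 in MEP. The stromal and endothelial list had 1 of 9 above both, Kdr, a receptor for vascular endothelial growth factor, with a summed intensity of 830 to 2030 in CMP, 425 to 593 in GMP and 307 to 854 in MEP, while Cdh5 and Col3a1 were below background on all 9 arrays. Pecam1, an endothelial adhesion molecule also found on blood cells, was higher than the midpoint by 1.61 and Lepr lower. Of the collagen and matrix genes, Col1a1 (8.89, 5.24 and 7.37 in CMP), Col1a2 and Sparc had their highest mean of the 6 populations in CMP, at 2.98, 1.22 and 1.38 from the midpoint, without passing. The median of the 9 was 1.22. The part of such cells in the differences was not tested.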

How the data were processed

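Total RNA of sorted populations was hybridized to 1-colour Agilent whole mouse genome arrays. Per the file headers, the deposited intensity of each spot is the Cy3 processed signal of Agilent Feature Extraction 10.2.1.3 or 9.5.3.1. The authors' table of log2 values after quantile normalization (array medians 6.44 to 6.47) served as an alternative; how its background was treated is not given in the sources used here. Here, log2 processed signals of 17 arrays were quantile normalized, then 1639 control spots of 45018 and outlier spots were left out (161 probe values missing). In R 4.3.3, limma 3.58.1 (lmFit and eBayes) fitted 1 mean per population with scanner run as a block (9 residual and 1.75 prior degrees of freedom), with Benjamini-Hochberg adjustment over 41174 probes at 0.05. A gene was represented by its brightest probe (8783 of 28090 names had several), and 19618 names were found in RefSeq. Levels were not compared between probes, and the number of arrays limits the precision.

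Above or below both took the larger p of CMP minus GMP and CMP minus MEP where the signs were the same, and between where they were opposite. Genes were named by rule. Above and below both, these were the 12 largest gaps among genes whose arrays did not overlap and that were well above background in the brighter populations. Between, or nearer to 1 daughter without a call outside both, they were the 5 largest differences from the midpoint in each direction. Each list gave up to 4 per class, and clone names were skipped. The members and lists were chosen with earlier results of these data known. Esam, Cebpe, Hbb-b2 and Tubb1 of the lists were not matched. Some list members are counted but not reported by name here.

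The code was tested on simulated data of 41015 probes, with CMP of unchanged probes set at the midpoint and noise independent between arrays. It recovered a gap of 1 in 47.5% of 200 probes above both and 47% of 200 below both, and a gap of 2 in 79.5% and 77.5%. It made 1 false call outside both and 34 false calls against the midpoint. Probes with CMP at the level of 1 daughter were not simulated, so the false calls of that case are not known. Deviations from population means correlated by 0.13 to 0.512 in the 9 pairs of CMP, GMP and MEP arrays with the same number or none. Pairs of unlike number in the same run had 0.089 to 0.169, which overlaps, and pairs between runs -0.395 to -0.169. The deviations within a population cancel each other, which by itself lowers the values between runs. Arrays of the same number shared a slide. The numbers were used as pairing in the replicate block alone, while the main fit used run. Alternatives were 75th percentile scaling, normexp background correction (offset 50), the authors' table, dim probes left out, the mean of all probes of a gene, no block, the replicate number as a block, a random block for slide, the 9 arrays alone, no LT-HSC arrays, single arrays left out, a gap of at least 1 and the linear midpoint.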

Additional observations from a re-analysis of the deposited data

How the results depend on the processing

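Of 251 genes followed by their gap or, for those not outside both, by their difference from the midpoint, none reversed a call; 119 lost theirs in the numbered arrays alone, 71 to 76 without a single CMP array, 31 to 50 without a single GMP or MEP array, 61 without a block for run, 53 with the replicate number as a block and 0 to 29 under the other settings that kept all 9 arrays. Without a block for run, 2292 probes were higher than the midpoint, 877 lower, 377 above both, 27 below both and 127 between. Normexp background correction gave 194 below both and 555 between, 534 were between in the values the authors deposited, and 527 without dim probes. On the 9 CMP, GMP and MEP arrays alone, 4330 were lower than the midpoint and 226 below both, and with the replicate number as a block 4181 were lower and 93 between. Against the same 9 arrays with run as the block, the replicate block moved below both from 226 to 125 and between from 236 to 93, and no other count by more than 1.5 times. Of the 248 gene names between, 125 kept that call on the 9 arrays with run as the block, 50 on them with the replicate block, and 56 to 174 without 1 array. Without the LT-HSC arrays 3925 were lower, 211 below both and 521 between. The linear midpoint, fitted to the differences within each array set, gave 4032 lower and a share of higher calls of 39.6%, against 58% in the main fit. On the log2 scale that share was 48.2% to 50.8% with 75th percentile scaling, normexp, the 9 arrays or without LT-HSC, and 72.3% without a block for run. A gap of at least 1 left 28 below both. Scaling to the 75th percentile moved the median difference from the midpoint over all probes from -0.08 to -0.30. In the numbered arrays alone, chosen after seeing the data, limma called 142 above both, 4 below both and 0 between, where 2009 had an unadjusted p under 0.05. Leaving out 1 array gave 2332 to 3250 higher, 1054 to 2405 lower, 332 to 571 above both, 31 to 71 below both and 68 to 246 between, fewest without the unnumbered CMP array for higher, lower and below both, the unnumbered GMP array for above both and CMP replicate 2 for between. Probes below background on all arrays of a population carry only a bound.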
